A study of Mus musculus with 4 samples.

Results

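Neuropeptides are short signalling peptides that neurons cut from larger precursor proteins and release from dense-core granules. The genes described here encode 10 such precursors used by spinal cord neurons, sensory neurons and interneurons: Npy, Sst, Penk, Pdyn, Tac1, Cck, Calca, Vip, Nts and Adcyap1. Their members were all probe sets to which the platform annotation gives 1 of these symbols, each probe set being several short oligonucleotides summarised as a single value. That rule found 11 probe sets of 9 genes among the 45101 probe sets on the array. No probe set carries the symbol Calca in the annotation used here, so Calca has no values below. Tac1 and Adcyap1 have 2 probe sets each and the other genes 1.

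The labelled tissue of all 4 Affymetrix arrays is mouse brain, hindbrain and spinal cord, from which total RNA was amplified by either of 2 methods. One yielded cDNA (a Nugen kit, 2 arrays) and the other antisense RNA, called aRNA (T7-based, 2 arrays). Within each preparation 1 array is numbered 1 and the other 0, and the meaning of the number is not stated. Strain, age, sex and treatment are not given in the labels, nor whether arrays shared RNA or animals. The p-values below thus reflect only how far these arrays spread, which may be technical or stem from unlike RNA. The method used, limma, draws the variance of each probe set towards that of probe sets of like intensity. Its standard errors can therefore be smaller than the spread of a gene's own arrays would give. With 2 arrays against 2 an exact two-sided permutation test cannot go below p = 0.333.

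In the dorsal horn of the spinal cord, peptide-containing sensory fibres release substance P and calcitonin gene-related peptide, made from Tac1 and Calca. Local neurons there make enkephalins and dynorphins (from Penk and Pdyn), which act on opioid receptors, as well as neuropeptide Y, somatostatin and neurotensin. In the forebrain, Sst, Vip, Npy and Cck are classical markers of subsets of GABAergic interneurons. Cck is also made by many excitatory neurons.

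The start sites of 4 members are shown because these genes had the largest differences between preparations or the same at least 2-fold direction in both pairs of numbered arrays. Each sequence is the 250 bases before a start site of the gene in RefSeq (build GRCm38.p6), read 5′ to 3′ on the gene's strand. Npy lies at chr6:49822460-49822709 and Vip at chr10:5638968-5639217, both on the plus strand. Tac1 lies at chr6:7554811-7555060 on the plus strand and Sst at chr16:23890845-23891094 on the minus strand. Capitals mark TGACG on either strand, the core of the cAMP response element (CRE) to which CREB and ATF proteins bind; the Npy window holds none.
Npy: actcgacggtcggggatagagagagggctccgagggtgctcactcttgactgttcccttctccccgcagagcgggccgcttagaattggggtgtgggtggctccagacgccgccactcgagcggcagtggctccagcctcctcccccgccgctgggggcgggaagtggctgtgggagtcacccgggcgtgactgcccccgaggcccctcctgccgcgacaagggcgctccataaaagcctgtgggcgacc
Vip: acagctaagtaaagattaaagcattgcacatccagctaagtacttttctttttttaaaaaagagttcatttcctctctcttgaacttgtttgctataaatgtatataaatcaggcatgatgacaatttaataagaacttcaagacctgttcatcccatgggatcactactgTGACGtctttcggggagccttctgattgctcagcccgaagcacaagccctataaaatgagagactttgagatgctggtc
Tac1: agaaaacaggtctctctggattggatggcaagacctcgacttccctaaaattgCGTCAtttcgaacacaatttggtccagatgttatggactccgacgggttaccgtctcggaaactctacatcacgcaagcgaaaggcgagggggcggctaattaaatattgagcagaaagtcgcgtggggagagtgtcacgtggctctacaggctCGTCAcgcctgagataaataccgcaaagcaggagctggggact
Sst: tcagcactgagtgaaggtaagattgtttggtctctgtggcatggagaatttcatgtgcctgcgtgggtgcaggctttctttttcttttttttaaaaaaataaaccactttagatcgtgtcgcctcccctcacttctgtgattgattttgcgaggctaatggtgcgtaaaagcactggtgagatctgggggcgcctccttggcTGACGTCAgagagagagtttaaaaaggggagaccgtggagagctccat

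The promoter table held 9 of the 10 genes, with 11 windows; Penk was not matched. TGACG or its reverse complement occurred in 7 of the 9 genes, namely Sst, Tac1, Cck, Calca, Vip, Nts and Adcyap1, and in 8 of the 11 windows. The Adcyap1 windows overlap and share the same match, which is counted in each. TGACG on either strand occurred in 17.8% of all 32851 windows of the table. The full palindromic CRE, TGACGTCA, which contains that core on both strands, was found in Sst alone among the members and in 1.55% of all windows. In Sst it spans 48 to 41 bases before the start. The AP-1 motif TGANTCA, searched on both strands, was found in Nts alone and in 6.75% of all windows. These matches describe letters in these windows and were not tested against the array values.

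Each array was read against its own background level, the 95th percentile of 27 control probe sets for Bacillus transcripts. It was 249 and 212 intensity units on cDNA arrays 1 and 0, against 126 and 123 on aRNA arrays 1 and 0. The 2% trimmed mean was 2500.02 on every array, so total signal cannot be compared. aRNA array 0 stood apart in sex-linked transcripts: Xist, made in female cells, was lowest there at all 3 probe sets (8.55 at 1436936_s_at, against 11.94 to 15.44 on the other arrays, log2 scale), and Y-linked Eif2s3y at 1417210_at was highest there (13.12, against 4.75 to 7.92). Both comparisons include this array, so what sets it apart cannot be told apart there from preparation or number. Several results that rest on this array are therefore also given without it. Between the numbers, every aRNA difference uses this array, so without it only the cDNA difference remains, with no test. As for the labelled tissue, all 9 pan-neuronal genes, all 5 oligodendrocyte genes and all 6 astrocyte genes with a probe set were above background on all 4 arrays. Of genes that mark spinal and hindbrain position (mostly Hox genes), 2 of 11 were, and of forebrain position genes 2 of 6, while Hoxa4, Hoxc8, Hoxc9, Hoxd10 and Emx2 lay under it on every array.

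Of the 11 neuropeptide probe sets, 9 were above background on all 4 arrays. The exceptions were both probe sets of Tac1. The plot of intensities by array shows all 11. Levels of different genes are not compared, since probe sets differ in affinity. In tissue RNA, fewer cells of a type and less RNA per cell cannot be told apart.

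**Figure D1:**
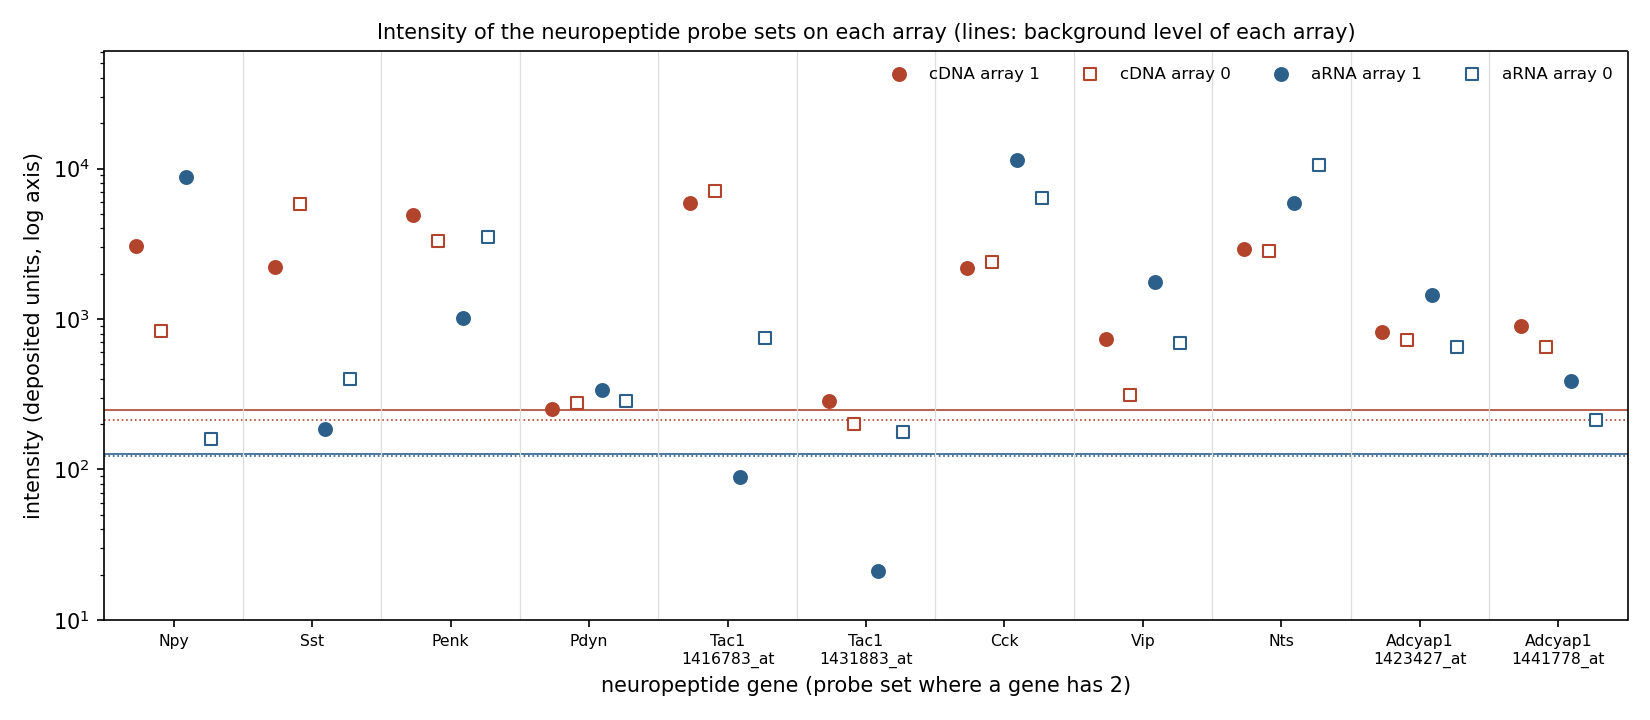
Intensity (deposited units, log axis) of the 11 neuropeptide probe sets on each array; filled symbols are arrays numbered 1, open symbols arrays numbered 0, and horizontal lines the background level of each array. Tac1 (1416783_at) and Sst lie higher on both cDNA arrays, Cck and Nts higher on both aRNA arrays, and Npy is highest on aRNA array 1 (8757) and lowest on aRNA array 0 (160).

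The first comparison asks how the preparations differ in these genes. Tac1 and Sst were higher on cDNA than on aRNA, and Cck and Nts were lower. Differences are given on the log2(intensity + 16) scale as cDNA minus aRNA, and a change is called at a limma adjusted p under 0.05 over all probe sets tested. Of the 9 neuropeptide probe sets that passed the filter on dim values, 2 were called higher and 2 lower. Among all 22519 tested, 20.2% were called higher and 22.9% lower (43.2% in all), so the members' share of calls lies near that of the array as a whole. At an unadjusted p under 0.05 there were 5 of 9, against 51.3% of all. The preparations did not overlap in 5 of the 9, against 73.8% of all. The median difference was 0.37 for the members and −0.11 for all probe sets tested (−0.25 with median centring). The second Tac1 probe set and Pdyn did not pass the filter and were not tested.

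Tac1 encodes the precursor of substance P and neurokinin A. At probe set 1416783_at it had 5922 and 7074 intensity units on cDNA arrays 1 and 0, against 89.0 and 751 on aRNA arrays 1 and 0. The preparations did not overlap, and aRNA array 1 lay under background. The mean was 12.66 ± 0.18 on cDNA and 8.15 ± 2.03 on aRNA (log2, SD, n = 2 each). On cDNA, Tac1 was higher by at least 19.7-fold (difference 4.51 ± 0.77 SE, limma adjusted p = 0.00187). Without aRNA array 1 the difference was 3.08 and without aRNA array 0 it was 5.95, both past the threshold. The dimmer probe set, 1431883_at, had 285 and 200 on cDNA arrays 1 and 0, against 21.1 and 176 on aRNA arrays 1 and 0. It lay under background on cDNA array 0 and aRNA array 1 and gave 1.60 with no filter (limma adjusted p = 0.288).

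Sst encodes somatostatin, an inhibitory peptide of dorsal horn neurons and forebrain interneurons. Its probe set had 2213 and 5846 on cDNA arrays 1 and 0, against 186 and 399 on aRNA arrays 1 and 0. Every cDNA value lay above every aRNA value. Means were 11.82 ± 0.99 on cDNA and 8.18 ± 0.73 on aRNA (log2, SD, n = 2 each), a 12.5-fold higher level on cDNA (difference 3.64 ± 0.56 SE, limma adjusted p = 0.00112). The difference ran from 2.94 without cDNA array 0 to 4.34 without cDNA array 1 and passed the threshold each time.

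Some markers of inhibitory interneurons were also higher on cDNA. Of 12 such genes with a probe set, 8 were tested, of which 4 were called higher, 1 lower and 3 (Slc6a5, Calb2 and Reln) not called, with a median difference of 1.30, against 20.2% higher and 22.9% lower among all probe sets tested. The glutamate decarboxylase genes Gad1 (3.83, adjusted p = 5.8e-05) and Gad2 (3.41), parvalbumin (Pvalb, 2.48) and the vesicular GABA transporter gene Slc32a1 (1.65, adjusted p = 0.0422) were higher, and the nitric oxide synthase gene Nos1 was lower at probe set 1429887_at (−1.45) but not called at 1438483_at (0.16, limma adjusted p = 0.811). The call of Slc32a1 was lost without aRNA array 1 (0.72), cDNA array 0 (adjusted p = 0.0638) or cDNA array 1 (0.0926), with median centring (0.0547), with no filter (0.0781) and with no intensity trend (0.0849). No interneuron marker was called lower without cDNA array 1 or without aRNA array 0. The summed intensity of the list was 42365 and 29594 on cDNA arrays 1 and 0, against 8355 and 20521 on aRNA arrays 1 and 0. Dlx1 and Dlx5 lay under background on all arrays. The part of these cells in the Sst and Tac1 results was not tested.

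Sensory ganglion markers were read next, although the labelled tissue does not name sensory ganglia. Of 7 such genes with a probe set 3 were tested, with 1 called higher and 0 lower, against 20.2% and 22.9% of all probe sets tested. The called gene, Isl1, had no single direction. Its probe set 1450723_at was called higher on cDNA (0.81, limma adjusted p = 0.00905; 0.0755 without cDNA array 1 and 0.0739 with no intensity trend), and 1422720_at was called lower (−1.36, adjusted p = 0.00719). The summed intensity of the list was 126282 and 116571 on cDNA arrays 1 and 0, against 108473 and 103997 on aRNA arrays 1 and 0. Prph (62263 and 64913 on cDNA arrays 1 and 0, against 74914 and 71751 on aRNA arrays 1 and 0) and Isl1 made up most of this sum, and both are also markers of motor neurons. The other 3 tested probe sets of Prph went both ways (−2.27, 2.94 and 2.50, all called). P2rx3, tested and not called (−0.48, limma adjusted p = 0.443), was lower on both cDNA arrays. It had 417 and 502 on cDNA arrays 1 and 0, against 527 and 789 on aRNA arrays 1 and 0. Of the 4 genes that did not pass the filter, Avil, Trpv1 and Scn11a were higher on both cDNA arrays, and Scn10a had no single direction. Avil had 971 and 588 on cDNA arrays 1 and 0, against 69.2 and 187 on aRNA arrays 1 and 0, and the heat-gated channel gene Trpv1 had 356 and 344, against 77.1 and 203; both lay under background on aRNA array 1. The nociceptor sodium channel gene Scn10a lay under background on cDNA array 1 (17.8) and between 134 and 227 on the other arrays. Scn11a had 353 and 349 on cDNA arrays 1 and 0, against 313 and 253 on aRNA arrays 1 and 0. With no filter, 2 of the 7 genes of the list were called higher and 0 lower. In that setting 9541 of all 45037 probe sets were called, 49.2% of them higher. The part of sensory neurons in the Tac1 values was not tested.

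Cck encodes cholecystokinin, a peptide of excitatory neurons and of a class of interneurons. It had 2184 and 2409 on cDNA arrays 1 and 0, against 11440 and 6335 on aRNA arrays 1 and 0. The preparations did not overlap. With means of 11.17 ± 0.10 on cDNA and 13.06 ± 0.60 on aRNA (log2, SD, n = 2 each), Cck was lower on cDNA by a difference of −1.88 ± 0.34 SE (limma adjusted p = 0.00233). It passed the threshold without any 1 array.

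Nts encodes the precursor of neurotensin and neuromedin N. Its values were 2915 and 2843 on cDNA arrays 1 and 0, against 5908 and 10494 on aRNA arrays 1 and 0. The cDNA arrays lay close together and below both aRNA arrays. Means were 11.50 ± 0.03 on cDNA and 12.95 ± 0.58 on aRNA (log2, SD, n = 2 each), a difference of −1.45 ± 0.33 SE (limma adjusted p = 0.00749). Without aRNA array 0, the array with unlike sex-linked transcripts, it was −1.03 and no longer past the threshold (adjusted p = 0.0607).

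**Figure D2:**
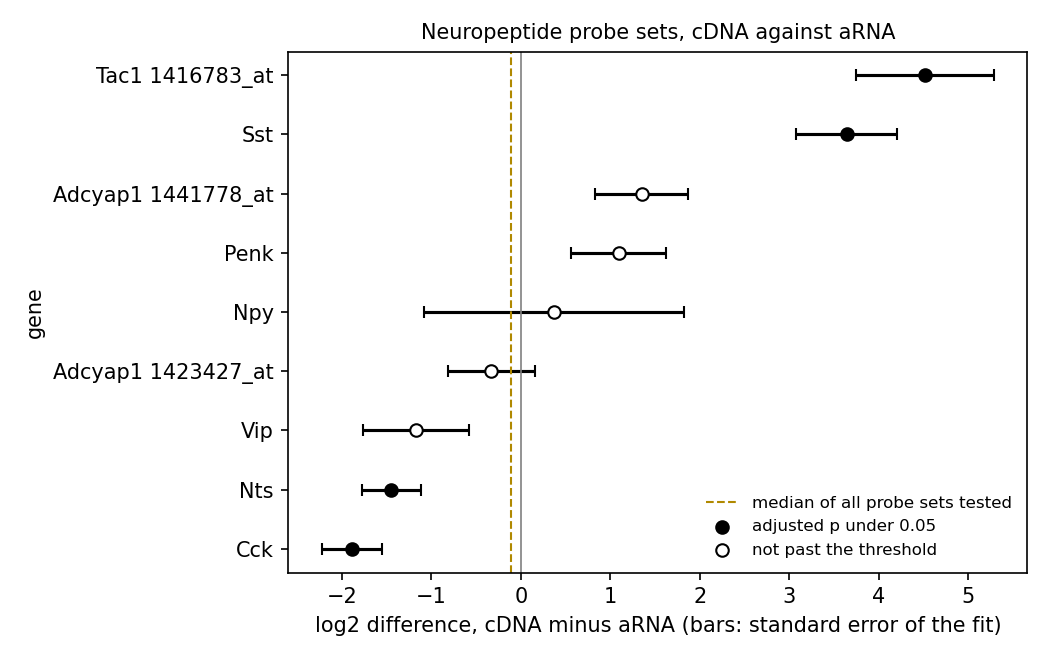
Difference between cDNA and aRNA (log2, cDNA minus aRNA) of the 9 tested neuropeptide probe sets; points are the fitted difference of 2 arrays against 2, bars the standard error, filled points those with an adjusted p under 0.05, and the dashed line the median of all 22519 probe sets tested (−0.11). Tac1 (4.51) and Sst (3.64) lie to the right and Cck (−1.88) and Nts (−1.45) to the left.

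The opioid precursors were not called between the preparations. Penk, the precursor of the enkephalins, had 4911 and 3312 on cDNA arrays 1 and 0, against 1010 and 3498 on aRNA arrays 1 and 0. aRNA array 1 was the low one, while aRNA array 0 lay between the cDNA arrays. The difference was 1.09 (limma adjusted p = 0.13), and without aRNA array 0 it was 1.98 and past the threshold (adjusted p = 0.00625). Pdyn, the precursor of the dynorphins, had 251 and 278 on cDNA arrays 1 and 0, against 336 and 287 on aRNA arrays 1 and 0. Both cDNA values lay just above background and below both aRNA values, and with no filter the difference was −0.22 (adjusted p = 0.839).

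Vip, Npy and Adcyap1 did not pass the threshold either. Vip encodes vasoactive intestinal peptide, and Adcyap1 encodes PACAP, a related peptide that shares receptors with it. The Vip probe set had 732 and 312 on cDNA arrays 1 and 0, against 1751 and 691 on aRNA arrays 1 and 0 (difference −1.18, limma adjusted p = 0.142; −1.77 and 0.039 without cDNA array 1). Both preparations held a higher and a lower array, and the ranges overlapped.

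The probe sets of Adcyap1 differed from each other. At 1423427_at it had 817 and 723 on cDNA arrays 1 and 0, against 1452 and 647 on aRNA arrays 1 and 0 (difference −0.33, limma adjusted p = 0.61; 0.24 without aRNA array 1). At 1441778_at it had 895 and 651 on cDNA arrays 1 and 0, against 390 and 215 on aRNA arrays 1 and 0. Here the preparations did not overlap, with a difference of 1.35 (limma adjusted p = 0.0646; 0.0434 with dim levels raised to background, 0.0421 with no intensity trend). Adcyap1 thus had no single direction between cDNA and aRNA.

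Npy, which encodes neuropeptide Y, had 3036 and 829 on cDNA arrays 1 and 0, against 8757 and 160 on aRNA arrays 1 and 0. The aRNA arrays held both the highest and the lowest value, so their SD was 3.99 around a mean of 10.28, against 1.31 around 10.65 on cDNA (log2, n = 2 each). The difference of 0.37 did not pass (limma adjusted p = 0.857), and it depended on single arrays: it was 3.19 without aRNA array 1 (adjusted p = 0.00526), −2.45 without aRNA array 0 (0.0114) and −0.56 without cDNA array 1 (0.81).

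The arrays numbered 1 were next compared with those numbered 0. Npy and Vip had higher values on the arrays numbered 1 in both preparations, and Sst lower values, but no neuropeptide probe set passed limma's test over all probe sets. At an unadjusted p under 0.05 there were 4 of 9 (Npy, Vip, Sst and Tac1). Among all 22519 tested, 0.0622% were called (0.0533% higher and 0.00888% lower) and 5.86% had an unadjusted p under 0.05. The fit with preparation and number leaves 1 residual degree of freedom. A difference of at least 2-fold in the same direction in both preparations was seen in 3 of the 9 (Npy, Vip and Sst), against 1.18% of all probe sets tested. In 6 of the 9 the sign was the same in both preparations, against 51.5% of all.

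Between numbers, Npy had the largest difference of the members. Its values of 3036 (cDNA) and 8757 (aRNA) on the arrays numbered 1 lay above those of 829 (cDNA) and 160 (aRNA) on the arrays numbered 0. The numbers did not overlap, as in 13.5% of all probe sets tested. Array 1 was 3.61-fold above array 0 on cDNA (1.85 on the log2 scale) and 49.7-fold on aRNA (5.64). Of the 22519 probe sets tested, 609 differed more between the cDNA arrays and 7 more between the aRNA arrays, in either direction. Over both preparations the difference was 3.74 ± 0.67 SE (limma adjusted p = 0.104), so it was not called. It was called with no filter (adjusted p = 0.0109) and with quantile normalization (1.36e-05), and its adjusted p reached 0.924 with no intensity trend. The aRNA value rests on aRNA array 0, the array with unlike sex-linked transcripts, and without it only the 1.85 on cDNA remains.

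Most astrocyte markers had positive differences between the numbers, and none was called. Over both preparations the fitted difference was positive for all 6 (median 0.59, Aldh1l1 near 0), and 4 had an unadjusted p under 0.05, against 5.86% of all probe sets tested. Within a preparation 5 of 6 were positive on cDNA (median 0.45), where Slc1a2 was −0.19, and 5 of 6 on aRNA (median 0.80), where Aldh1l1 was −0.34. Without aRNA array 0 only the cDNA differences remain. Their summed intensity was 114925 and 103399 on the cDNA and aRNA arrays numbered 1, against 91320 and 53119 on those numbered 0. Gfap, the intermediate filament of astrocytes, had 7638 (cDNA) and 22454 (aRNA) on number 1, against 3466 (cDNA) and 566 (aRNA) on number 0 at 1440142_s_at. Only this probe set of Gfap was read between the numbers. Others were unlike it between the preparations: 1426508_at (4.72) and 1426509_s_at (5.79) were called higher on cDNA, against 0.51 at 1440142_s_at. A positive sign was not particular to astrocytes. Of 9 pan-neuronal markers, 8 were positive over both preparations (median 0.20), with 1 at an unadjusted limma p under 0.05. The part of astrocytes in the Npy values was not tested.

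The gene for vasoactive intestinal peptide differed by a like amount in each preparation. Vip had 732 (cDNA) and 1751 (aRNA) on number 1, against 312 (cDNA) and 691 (aRNA) on number 0. That is 2.28-fold higher on cDNA and 2.50-fold on aRNA. The lower of the number 1 values, 732, lay just above the higher of the number 0 values, 691. The fitted difference was 1.26 ± 0.47 SE (limma adjusted p = 0.779).

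Sst went the other way, with 2213 (cDNA) and 186 (aRNA) on number 1, against 5846 (cDNA) and 399 (aRNA) on number 0. Its difference was −1.40 on cDNA and −1.03 on aRNA, −1.21 ± 0.43 SE over both (limma adjusted p = 0.757). Tac1 at 1416783_at gave −0.26 on cDNA and −2.87 on aRNA, where array 1 lay under background. Its fitted difference was −1.56 ± 0.55 SE (limma adjusted p = 0.752). The 8 tested interneuron markers were positive in 6 on cDNA (median 0.35) and in 0 on aRNA (median −1.13) between the numbers, with none called in limma over both preparations and 2 at an unadjusted p under 0.05. Their part in the Sst values was not tested.

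The other members showed smaller or opposed differences. Adcyap1 was positive at both probe sets, with 0.17 on cDNA and 1.15 on aRNA at 1423427_at and 0.45 and 0.82 at 1441778_at. At 1423427_at the numbers did not overlap. Penk was 0.57 on cDNA and −1.78 on aRNA. Cck gave −0.14 and 0.85, Nts 0.04 and −0.83, and Pdyn −0.14 and 0.22, in the same order. Penk, Cck and Nts, and the untested Pdyn, thus had opposite signs in the preparations.

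**Figure D3:**
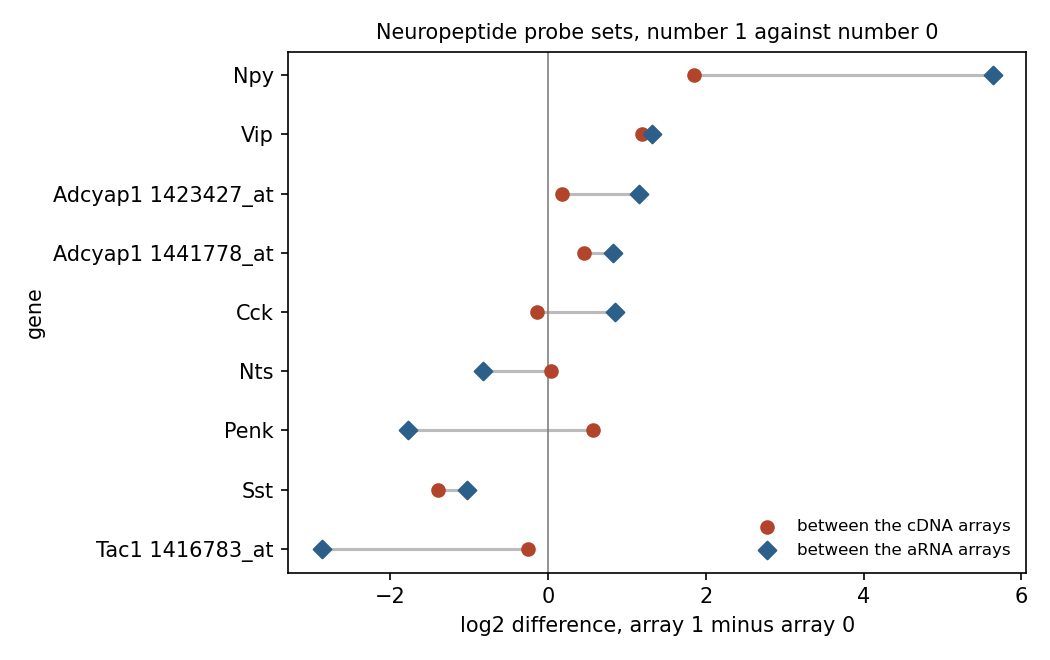
Difference between the array numbered 1 and the array numbered 0 (log2) of the 9 tested neuropeptide probe sets, drawn for the cDNA pair (circles) and the aRNA pair (diamonds), with no replicates within a pair. Npy (1.85 and 5.64) and Vip (1.19 and 1.32) lie to the right in both pairs and Sst (−1.40 and −1.03) to the left in both.

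The genes whose values over the 4 arrays were most like those of a member were found among 11944 other genes, by the root mean square distance of log2 values. For Npy they were Tent5c (distance 0.60), Cd52 (0.60) and Clec7a (0.69), and for Sst they were Col25a1 (0.18), Gad2 (0.20) and Boc (0.22). The genes nearest to Tac1 were Ogn (0.60), Mecom (0.73) and Calcrl (0.76), the last the receptor component that binds calcitonin gene-related peptide. For Cck they were Slc23a2 (0.13), Pde10a (0.17) and Sgip1 (0.17). This distance also reflects probe affinity. With each probe set centred on its own mean, a measure added after the data were seen, Gfap at 1440142_s_at was nearest to Npy (0.29). Cd52 and Tent5c stayed among the nearest 3, and Col25a1 (0.15) and Gad2 (0.17) stayed nearest to Sst. The other tested probe sets of Gfap differed by 4.72 (1426508_at) and 5.79 (1426509_s_at) between the preparations. At 1440142_s_at that difference was 0.51, and for Npy 0.37. For Tac1 the nearest after centring were Mecom (0.46), Sntb1 (0.50) and Acsm3 (0.56), with Ogn at rank 6 and Calcrl at rank 11. For Cck only Sgip1 stayed among the nearest 3. With 4 arrays, such likeness is a description only.

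Receptors of these peptides were called in both directions between the preparations. Of 25 receptor genes, all with a probe set, 12 were tested, with 1 called higher and 3 lower on cDNA and a median difference of 0.06, against 20.2% higher and 22.9% lower among all probe sets tested. Calcrl had 3462 and 7120 on cDNA arrays 1 and 0, against 144 and 327 on aRNA arrays 1 and 0, a difference of 4.41 (limma adjusted p = 0.0003). Ramp1, which pairs with Calcrl to form the receptor for calcitonin gene-related peptide, went the other way, with 2183 and 2325 on cDNA arrays 1 and 0, against 5929 and 6298 on aRNA arrays 1 and 0 (−1.43, adjusted p = 0.00361). Sort1, the sorting receptor that also binds neurotensin, was lower at probe set 1423362_at (−1.77) and not called at 1423363_at (0.74, limma adjusted p = 0.138) or 1450955_s_at (−0.05, 0.921). The neuropeptide Y receptor gene Npy5r was lower by a narrow margin (−1.27, adjusted p = 0.0414) and was not past the threshold without cDNA array 0 (−1.05), aRNA array 0 (−0.93) or aRNA array 1 (−1.62), or with no filter. Sstr1 and Vipr1 lay under background on all arrays, and the opioid receptor genes Oprm1, Oprd1 and Oprk1 did not pass the filter. Between the numbers none of the 12 was called and 2 had an unadjusted p under 0.05.

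Genes for processing, storing and degrading the peptides were read against the 43.2% called among all probe sets tested. Of 7 measured processing genes, all tested, 1 was called at the probe set with the highest mean. This was Scg5, the chaperone of the convertase PC2, higher on cDNA (1.91, limma adjusted p = 0.00393). Cpd was not called at that probe set, 1455009_at (−0.86). Of its other tested probe sets, 1418018_at was called lower (−3.40, limma adjusted p = 0.00042). Its probe sets 1434547_at (−0.52) and 1442212_at (−0.64) were not called. The processing list had a median of −0.25. Carboxypeptidase E (Cpe) had 113727 and 88515 on cDNA arrays 1 and 0, against 97834 and 74996 on aRNA arrays 1 and 0, a difference of 0.23 (adjusted p = 0.383). Of 9 granule genes, 2 were called higher and 3 lower, with a median of 0.01. The priming factor gene Cadps2 was higher (3.17) while its paralogue Cadps was lower (−1.40). Secretogranin II (Scg2, −1.16) was lower and Vgf higher (1.36), Vgf not past the threshold with median centring (1.21), with no filter (adjusted p = 0.0885), with no intensity trend (0.128) or without cDNA array 0 (1.40), cDNA array 1 (1.32) or aRNA array 0 (0.46), and Scg2 not without aRNA array 0 (−0.86). Of 7 tested peptidase genes 2 were called lower, with a median of −0.11. Prolyl endopeptidase (Prep), under background on cDNA array 1, was at least 9.93-fold lower on cDNA at probe set 1422796_at (difference −3.48), while 1439942_at gave 0.21 and was not called (adjusted p = 0.733). The insulin-degrading enzyme gene Ide was lower by a difference of −1.16 at 1435140_at (−0.89 and not called without aRNA array 1), and of its 3 other tested probe sets 1423120_at (−1.57) and 1441860_x_at (−2.05) were called lower and 1423121_at (0.27) was not called. Between the numbers no gene of these 3 lists was called by limma; at an unadjusted p under 0.05 there were 2 processing genes, 1 granule gene and no peptidase gene.

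Other neuropeptide precursors were read beside the members. Of 15 genes with a probe set, 7 were tested, with 1 called higher and 1 lower between the preparations (median −0.22), against 20.2% and 22.9% of all probe sets tested. The gene of corticotropin-releasing hormone, Crh, was higher on cDNA by at least 6.28-fold (limma adjusted p = 0.0246, 0.0571 with no filter and 0.0685 with no intensity trend; under background on aRNA array 0). Without aRNA array 0 its difference was 1.60, against 3.62 with all arrays, and without cDNA array 1 it did not pass the filter. Urocortin (Ucn) was lower (−1.73) and not past the threshold without cDNA array 0 (−1.38) or aRNA array 1 (−1.02), or with no intensity trend (adjusted p = 0.0544). Calcb, which encodes the beta form of calcitonin gene-related peptide, had 91199 and 68778 on cDNA arrays 1 and 0, against 93982 and 73473 on aRNA arrays 1 and 0. It did not pass between the preparations (difference −0.07, limma adjusted p = 0.806).

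Galanin (Gal), a peptide of sensory and hypothalamic neurons, was the 1 gene of these lists called between the numbers. It had 8991 (cDNA) and 10600 (aRNA) on number 1, against 1975 (cDNA) and 3117 (aRNA) on number 0. Both number 1 values lay above both number 0 values. The difference was 2.18 on cDNA and 1.76 on aRNA, 1.97 over both (limma adjusted p = 0.0476). The call was lost with a pseudocount of 64 (adjusted p = 0.089), with median centring (0.0702) and with no intensity trend (0.924). Without aRNA array 0 only the 2.18 on cDNA remains, with no test. The 7 tested precursors had a median difference of 1.03 between numbers, against −0.01 for all probe sets tested, and 5 of them were positive; 5 of 7 had an unadjusted p under 0.05, against 5.86% of all.

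**Figure D4:**
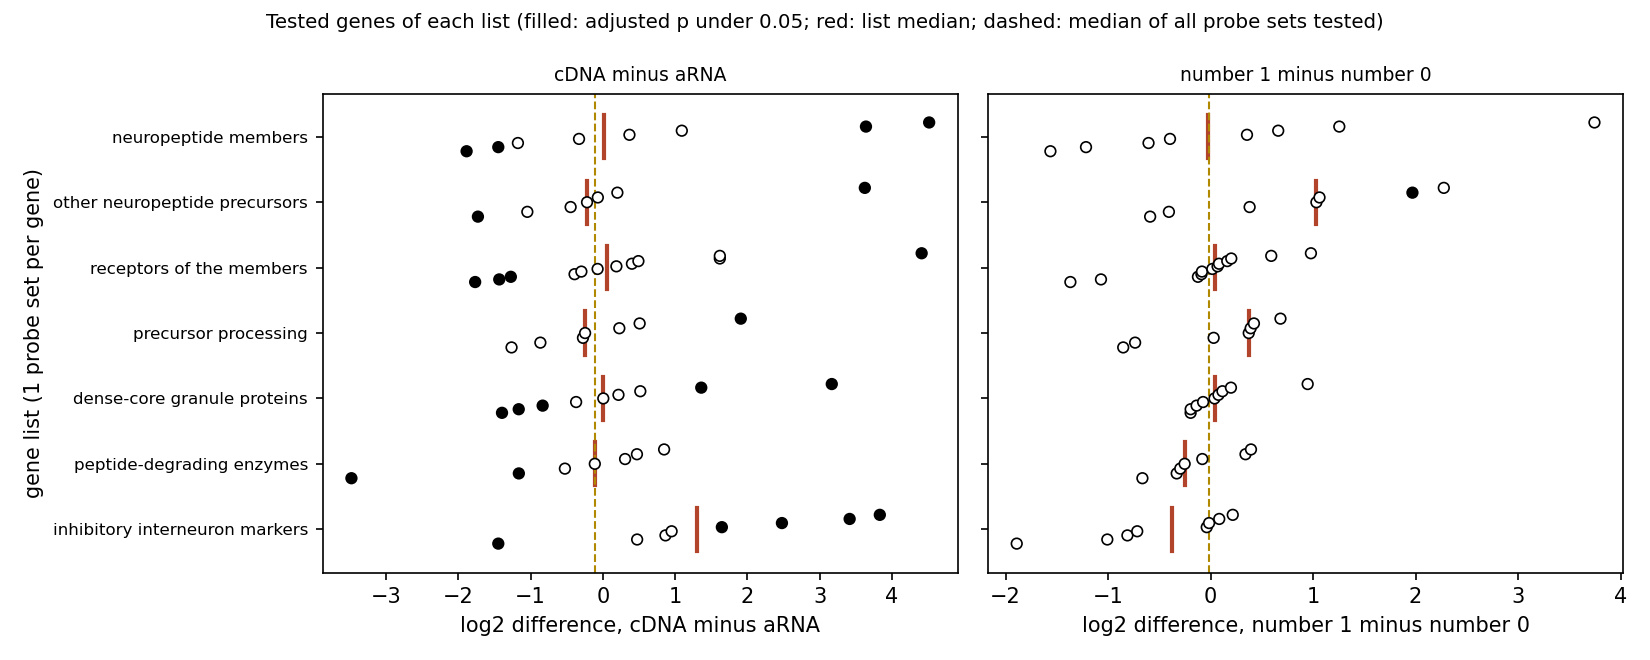
Differences of the tested genes of each list (log2, 1 probe set per gene), cDNA minus aRNA on the left and number 1 minus number 0 on the right; filled points have an adjusted p under 0.05, red bars are list medians and dashed lines the median of all probe sets tested (−0.11 and −0.01). The interneuron markers have a median of 1.30 between the preparations, and Gal is the filled point on the right.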

How the data were processed

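The deposited table holds intensity on a linear scale, 1 value per probe set and array, already scaled by the authors to a common trimmed mean; for the summarising software, the sources used here name none. Values were used as log2(intensity + 16), on which folds of dim transcripts are understated. Leaving out 64 control probe sets, 22519 of the other 45037, those with a mean at or above the median (8.38), were tested. The comparison of preparations used limma (version 3.58.1, R 4.3.3; functions lmFit and eBayes, variance trended on intensity, 2 residual degrees of freedom), and numbers in a model with preparation and number; p-values were adjusted over all probe sets tested (Benjamini-Hochberg, threshold 0.05). The fit was run on simulated data with equal noise at every probe set, a check of the code and not of the calls here. Where an array lay under background, a fold is a lower bound against that level.

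Symbols came from the platform annotation (1 symbol for 34945 probe sets) and were updated through RefSeq gene identifiers for the lists. For gene lists the probe set with the highest mean was kept per gene. Named genes were all members, up to 4 called genes with the largest difference per list, and the 3 most like genes per member, of which those of 4 members are given; genes named outside this rule were chosen after their values were seen. The members and lists were chosen with earlier results of these data known. Other settings tried were the pseudocount, filter, normalization, background, variance trend, left-out arrays and the number as a block. Promoters came from RefSeq (GRCm38.p6). Python 3.11.15 and matplotlib 3.10.9 drew the plots.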

Additional observations from a re-analysis of the deposited data

Results flagged for a closer look

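Npy differed between the preparations in opposite directions at the numbers: cDNA minus aRNA was 2.26 between the arrays numbered 0 and −1.52 between those numbered 1 (log2). Penk differed between the numbers in opposite directions in the preparations, with number 1 minus number 0 at 0.57 on cDNA and −1.78 on aRNA. Each of these values sets 1 array against 1, only members with at least 0.5 each way were listed, and the difference between the values was not tested.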

How the results depend on the processing

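Sst, Tac1 (1416783_at), Cck and Nts were called between the preparations with either other pseudocount, with no filter, with quantile normalization, with median centring, with dim levels raised to background and with no intensity trend. With the filter at the 75th percentile Sst and Tac1 were no longer among the probe sets tested, leaving 2 of the members called, and 6454 probe sets were called in all, against 9722. With 1 array left out, 4 to 5 members and 7222 to 8635 probe sets were called. Between the preparations Npy ranged from −2.45 (without aRNA array 0) to 3.19 (without aRNA array 1), with −0.56 without cDNA array 1, and Adcyap1 (1423427_at) from −0.90 (without aRNA array 0) to 0.24 (without aRNA array 1); the cause was not tested.

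Between the numbers 14 probe sets were called, against 9 with a pseudocount of 64, 8 with median centring, 28 with no filter, 64 with quantile normalization and 0 in limma with no intensity trend (1101 at an unadjusted p under 0.05). Of the members 1, Npy, was called with no filter and with quantile normalization, and 0 in the main setting and each other setting with a test. With 1 array left out the comparison of the numbers has no residual degree of freedom, so the differences within the other preparation stand as values with no test. With the number as a replicate block, 10245 probe sets and the same 4 members were called between the preparations. The numbers were not taken as pairs: the correlation of the deviations of same-numbered arrays was 0.0412. With the background level at the median of the Bacillus controls, 10 of 11 member probe sets lay above it on all arrays, against 9. The mean of both Tac1 probe sets differed by 3.05 between the preparations, against 4.51. The number of arrays limits the precision of every value.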

Other observations

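Pmch, which encodes the hypothalamic peptide melanin-concentrating hormone, had 13014 intensity units on cDNA array 1, against 262 to 264 on the other 3 arrays; it was called neither between the preparations (2.77, limma adjusted p = 0.137) nor between the numbers. Tac2, the neurokinin B precursor, was not tested; it had 387 and 965 on cDNA arrays 1 and 0 against 20.2 and 32.9 on aRNA arrays 1 and 0, both under background. Grp, the precursor of gastrin-releasing peptide and also outside the filter, had 656 (cDNA) and 685 (aRNA) on number 1, against 262 (cDNA) and 68.3 (aRNA) on number 0, the last under background. These genes were chosen after their values were seen.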
